A study of Mus musculus with 12 samples.

Results

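The genes described here mostly encode proteins of the spliceosome and its main RNA-binding partners in lymph node CD4+ T cells. Their families are the protein subunits of the small nuclear ribonucleoproteins (snRNPs) with the splice-site factors, serine/arginine-rich (SR) Srsf proteins, and heterogeneous nuclear ribonucleoproteins (hnRNPs). Members were taken by symbol, by a rule that uses no measured values, though the set was chosen with earlier results of these data known. The rule takes every protein-coding row with a single gene ID and a matching symbol. Such symbols are Sf3a, Sf3b, Srsf, Prpf or Lsm with a number, any that begin with Snrp, Snrnp or Hnrnp, and U2af1, U2af2 or Sf1. That gave 86 genes of 21021 single-ID protein-coding rows in a table of 45669 rows. Of the 86 genes, 11 encode Srsf proteins, 19 encode hnRNPs and 56 are grouped as snRNP and splice-site genes. The 56 include 6 Lsm genes and 6 Prpf genes of other roles. Not all of these encode snRNP proteins (Lsm14a does not), and snRNP genes below means all 56. Hnrnpu and Snrpn carry matching symbols but sit in rows that join 2 and 3 gene IDs, so they are not members and only their raw counts are given below.

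A spliceosome is built on each intron from snRNPs, each a small nuclear RNA wrapped in a ring of Sm proteins (Lsm proteins on U6) and joined by proteins of its own. U1 marks the start of the intron, Sf1 and U2af mark the branch point and the 3′ splice site, U2 with its Sf3a and Sf3b subunits takes over the branch point, and the tri-snRNP of U4, U6 and U5 brings the catalytic core. SR proteins mostly favour use of the exons they bind and hnRNPs often oppose it, and many genes of both families are known to regulate their own mRNA through alternative exons that lead to nonsense-mediated decay (NMD). In T cells, Hnrnpll is known for controlling alternative splicing of the Cd45 mRNA.

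Ribosome-protected fragments (RPF, the mRNA pieces shielded by ribosomes from nuclease digestion) and total RNA were sequenced from lymph node CD4+ T cells purified by negative magnetic selection from C57BL6 mice aged 12 weeks. The mice were homozygous for the Anaef allele of Rasgrp1, which encodes an activator of Ras downstream of the T cell receptor, or were WT/WT. The 4 groups were Anaef RPF (n = 2), WT RPF (n = 2), Anaef total RNA (n = 4) and WT total RNA (n = 4). RPF cells were pools of 2 samples, treated with cycloheximide at 100 µg/ml for 1 minute before lysis. Total RNA came from 20000 untreated cells per library, by poly(A) bead capture. The labels do not say which mice a pool holds, so p-values measure the spread between these libraries only. The allele is named in the labels without the change it makes. Fewer cells of a type and less RNA per cell cannot be told apart in such bulk libraries.

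Libraries held 2868943 and 3464868 counts in Anaef RPF, 4044330 and 7009342 in WT RPF, 18580747 to 39467754 in Anaef total RNA and 15326842 to 40046317 in WT total RNA. The WT total RNA library numbered 3 was the shallowest of its assay and had 38.3% of its counts in nuclear protein-coding rows, against 43.7 to 55.3% in the other total RNA libraries and 87.1 to 94.1% in RPF. All 15 CD4 T cell markers were detected in every group, summing to 9805 to 9945 CPM (counts scaled to library size) in Anaef RPF, 8992 to 10128 in WT RPF, 5480 to 7033 in Anaef total RNA and 5053 to 5456 in WT total RNA. The 9 plasma cell markers summed to 3348 to 10472 CPM in Anaef RPF against 14984 to 51168 in WT RPF, and to 435 to 939 in Anaef total RNA against 1396 to 8368 in WT total RNA. The 12 B cell markers summed to 23.2 to 39.8 CPM in Anaef RPF and 52.2 to 101 in WT RPF (Cd22 at 0 in both), and to 17.7 to 52.6 in Anaef total RNA and 45.2 to 82.3 in WT total RNA. The 8 CD8 and NK markers stayed at or under 68.0 CPM and the 10 myeloid markers at or under 47.1 CPM in every library, with Cd14 and Fcgr1 at 0 throughout. The part of the plasma and B cell difference in the genotype results below was not tested.

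The first 120 coding bases of 5 members that the results turn on are shown here, read from the GENCODE vM21 transcripts (build GRCm38), to show how much of a short read's target each gene shares with other genes. Capitals mark bases inside a stretch of 30 bases that also stands, on either strand, in an annotated transcript of another gene. A read of just such a stretch has more than 1 match, while a longer read that reaches past it may still be unique. Snrpb (chr2:130171414-130179403, minus strand) and Hnrnpf (chr6:117900324-117925622, plus strand) carry the most uneven footprint counts between genotypes by unadjusted p in their families. Snrpd3 (chr10:75517551-75537381, plus strand) has the highest and Prpf38b (chr3:108902805-108911727, minus strand) the lowest ratio of footprints to total RNA of all members, and Hnrnph3 (chr10:63014664-63024217, minus strand) the lowest of the hnRNPs in WT cells.
Snrpb: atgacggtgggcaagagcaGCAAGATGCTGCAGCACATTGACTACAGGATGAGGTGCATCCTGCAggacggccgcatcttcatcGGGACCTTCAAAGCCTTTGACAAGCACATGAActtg
Hnrnpf: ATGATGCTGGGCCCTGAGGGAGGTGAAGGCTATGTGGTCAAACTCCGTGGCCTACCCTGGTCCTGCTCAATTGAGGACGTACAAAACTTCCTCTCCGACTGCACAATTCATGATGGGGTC
Snrpd3: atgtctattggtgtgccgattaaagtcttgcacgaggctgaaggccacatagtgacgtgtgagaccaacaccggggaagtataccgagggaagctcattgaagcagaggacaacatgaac
Hnrnph3: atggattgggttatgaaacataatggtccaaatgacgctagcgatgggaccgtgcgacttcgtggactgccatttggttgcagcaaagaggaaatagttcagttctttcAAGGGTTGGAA
Prpf38b: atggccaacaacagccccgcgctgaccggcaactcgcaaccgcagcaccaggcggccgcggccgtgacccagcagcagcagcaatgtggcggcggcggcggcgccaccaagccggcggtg
Capitals cover 120 of the 120 bases shown for Hnrnpf, 78 for Snrpb, 11 for Hnrnph3 and 0 for Snrpd3 and Prpf38b. Over the whole coding sequence Snrpb shares less than in this stretch, 11.3%.

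Sharing of this kind is common in the set. Of the 86 members, 24 (27.9%) shared over 50% of their 30-base stretches with another gene, against 13.7% of nuclear protein-coding rows. Hnrnpf shared 97.8% with 9 other genes, of which 7 are annotated pseudogenes, and Hnrnpa3 shared 97.7% with 51 genes, 47 of them pseudogenes. Lsm7 and Snrpg shared 100%, Srsf3 94.2%, Lsm5 88.5%, Hnrnpk 86.1%, Hnrnpa1 85.6%, Srsf10 85.5%, U2af1 84.4%, Sf3b4 83.8%, Snrpf 83.0% and Snrpe 78.5%. The others of the 24 were Lsm6 (81.0%), Snrpd2 (73.5%), Hnrnph2 (71.9%), Srsf5 (69.65%), U2af2 (64.4%) and Lsm12 (63.85%). Below these came Snrpa (62.1%), Hnrnpc (59.8%), Srsf4 (58.6%), Snrpd1 (58.5%) and Snrpc (56.1%). The counting rule for such reads is not stated in the labels, so the values of these 24 genes are uncertain. Hnrnpa0, Snrpd3, Prpf38b, Prpf39, Lsm2 and Sf1 shared none, and over members the shared percentage had almost no rank relation to the ratio of footprints to RNA (Spearman rho 0.06 in Anaef cells and 0.05 in WT cells across genes, a description). Members that shared over 50% had a median log2 ratio of 0.82 in Anaef cells and 0.68 in WT cells, and those that shared up to 50% had 0.21 in Anaef cells and 0.31 in WT cells.

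In summed level per length, the snRNP family took a larger part of the footprints than of the mRNA. The SR sum took a smaller part, which rests on Srsf2, and in CPM over all rows it ran the other way. Levels were set per length, as counts per kilobase of coding sequence for RPF or of exons for total RNA, scaled so that the nuclear protein-coding rows have the same sum in every library. On this per-length scale the 56 snRNP and splice-site genes summed to 7895 ± 256 in Anaef RPF and 7517 ± 213 in WT RPF (SD, n = 2 each), against 5949 ± 366 in Anaef total RNA and 5568 ± 338 in WT total RNA (SD, n = 4 each). The 11 Srsf genes summed to 2353 ± 26.2 in Anaef RPF and 2347 ± 77.6 in WT RPF, against 2978 ± 268 in Anaef total RNA and 2966 ± 129 in WT total RNA. In both families and both genotypes the RPF and total RNA libraries did not overlap. Srsf2 alone differed by about as much as the Srsf sum. It had 791 ± 229 in Anaef total RNA and 811 ± 209 in WT total RNA, against 190 ± 7.91 in Anaef RPF and 166 ± 12.5 in WT RPF. Srsf1, Srsf3 and Srsf7 had higher means in RPF than in total RNA in both genotypes. The 19 hnRNP genes summed to 6245 ± 100.4 in Anaef RPF and 7182 ± 591 in WT RPF, and to 6999 ± 555 in Anaef total RNA and 6837 ± 655 in WT total RNA. There the assays overlapped in both genotypes, and the WT RPF pair stood above the Anaef RPF pair. Most of that gap between the RPF pairs rests on Hnrnpf, with 878 ± 2.02 in Anaef RPF and 1461 ± 106 in WT RPF. Hnrnpf shared 97.8% of its stretches with other genes. As a share of nuclear protein-coding counts with no division by length, the Srsf genes also held less of RPF (0.187 to 0.206%) than of total RNA (0.305 to 0.338%). In CPM over all rows the order of the Srsf sum was the reverse, 1854 ± 47.1 in Anaef RPF and 1765 ± 125 in WT RPF against 1608 ± 101 in Anaef total RNA and 1518 ± 65.2 in WT total RNA. The CPM totals include the rows outside the protein-coding set.

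**Figure D1:**
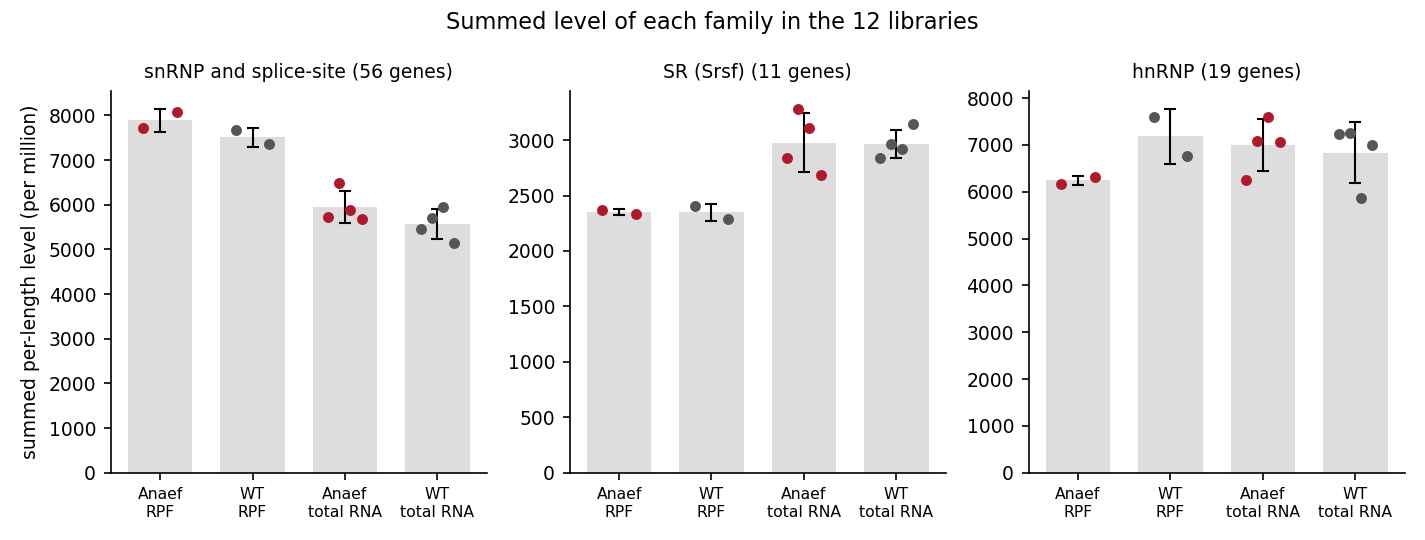
Summed per-length level of the snRNP, SR and hnRNP families (vertical axis, per-length scale with the same sum over nuclear protein-coding rows in every library) in each of 12 libraries (points), with the group mean (bar, from 0) and SD (error bar). The snRNP bars are higher in RPF than in total RNA, and the hnRNP bars lie between 6245 and 7182 in all 4 groups. The SR bars are lower in RPF, which rests on Srsf2, while in CPM over all rows the SR sum is higher in RPF.

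Within the snRNP family the small rings had higher sums in footprints than in total RNA. The 7 Sm ring genes summed to 2562 ± 58.4 in Anaef RPF and 2306 ± 50.5 in WT RPF, against 940.2 ± 215 in Anaef total RNA and 730.1 ± 268 in WT total RNA. Most of that difference rests on Snrpd3, with 1257 ± 74.2 in Anaef RPF and 1250 ± 38.1 in WT RPF. In total RNA Snrpd3 had 23.9 ± 10.5 in Anaef and 35.0 ± 8.16 in WT. Snrpg, which shares 100%, had 541 ± 186 in Anaef total RNA and 363 ± 221 in WT total RNA. In RPF Snrpg had 511 ± 24.2 in Anaef and 466 ± 58.4 in WT. The 7 Lsm genes of the U6 ring summed to 930.1 ± 43.9 in Anaef RPF and 793 ± 111 in WT RPF, against 483 ± 59.1 in Anaef total RNA and 416 ± 122 in WT total RNA. The 11 U2 genes gave 2121 ± 42.6 in Anaef RPF and 1993 ± 32.9 in WT RPF, against 1249 ± 66.0 in Anaef total RNA and 1204 ± 51.3 in WT total RNA. The 10 tri-snRNP genes ran the other way per length, though not in CPM, with 825 ± 7.89 in Anaef RPF and 862 ± 28.8 in WT RPF, against 1549 ± 179 in Anaef total RNA and 1569.5 ± 88.1 in WT total RNA. Most of the tri-snRNP difference rests on Prpf38b. It alone carried 697 ± 82.0 of the total RNA level in Anaef cells and 660.2 ± 58.9 in WT cells. In RPF it had 16.2 ± 4.84 in Anaef cells and 14.3 ± 0.766 in WT cells.

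The order of the members differed between the assays. Snrpd3 (SmD3) had the highest per-length footprint level of all 86 genes, 1257 ± 74.2 in Anaef RPF and 1250.3 ± 38.1 in WT RPF, and ranked 69 of 86 in total RNA with 23.9 ± 10.5 in Anaef and 35.0 ± 8.16 in WT. Prpf38b ranked 78 in footprints, with 16.2 ± 4.84 in Anaef RPF and 14.3 ± 0.766 in WT RPF, and 7 in total RNA. Hnrnpa3 led the total RNA order with 1362 ± 210.5 in Anaef and 1117 ± 54.3 in WT and was number 7 in footprints, where it had 581 ± 41.9 in Anaef and 614 ± 57.7 in WT. Several abundant members kept a high place in both assays. Hnrnpf, which binds G-rich RNA, was number 3 in footprints with 878 ± 2.02 in Anaef and 1461 ± 106 in WT, and number 2 in total RNA with 1006 ± 224 in Anaef and 1119 ± 221 in WT. Hnrnpf and Hnrnpa3 did not differ in total RNA beyond their spread in WT cells. Srsf5 was number 6 in footprints (680.5 ± 102 in Anaef, 612 ± 93.8 in WT) and number 3 in total RNA (911 ± 128 in Anaef, 876 ± 62.6 in WT), the most abundant Srsf mRNA. Sf3b1, the largest Sf3b subunit, was number 10 in footprints (395 ± 25.2 in Anaef, 382 ± 15.7 in WT) and number 8 in total RNA (497 ± 28.4 in Anaef, 497 ± 8.44 in WT). Srsf12 was the lowest member in both assays, with means from 1.11 in Anaef RPF to 7.95 in Anaef total RNA.

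Hnrnpll, the Cd45 splicing regulator, was among the scarcest hnRNPs, at 5.62 ± 3.25 in Anaef RPF and 10.0 ± 3.28 in WT RPF, and at 27.0 ± 3.39 in Anaef total RNA and 29.5 ± 4.91 in WT total RNA. Its relative Hnrnpl stood higher, at 97.4 ± 0.602 in Anaef RPF and 139.5 ± 3.88 in WT RPF, and at 195 ± 28.6 in Anaef total RNA and 211 ± 19.0 in WT total RNA. In raw counts, the joined Hnrnpu row held 6260 and 5593 in Anaef RPF, 16567 and 7751 in WT RPF, 4995 to 10608 in Anaef total RNA and 2523 to 10483 in WT total RNA. The joined Snrpn row was low everywhere, with 7 and 15 counts in Anaef RPF, 6 and 0 in WT RPF, 49 to 89 in Anaef total RNA and 29 to 127 in WT total RNA.

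Footprints relative to total RNA were compared within each genotype with edgeR's quasi-likelihood test over all rows, with Benjamini-Hochberg adjusted p under 0.05 as the call. The Anaef and WT comparisons share no library. The library kits also differ between the assays, so that assay and kit cannot be told apart. The RPF columns are labelled as masked and the total RNA columns are not. Of 715 long noncoding rows with a mean of at least 100 counts in total RNA, 707 had 0 RPF counts. The part of the mask in the ratios of members was not tested. In Anaef cells 38 of 86 members were higher in RPF and 22 lower, and in WT cells 41 were higher and 22 lower. The background in Anaef cells was 16.4% of all rows tested called higher and 50.8% lower, or 21.6% higher and 36.2% lower among nuclear protein-coding rows. In WT cells it was 19.6% higher and 54.4% lower over all rows, or 26.5% higher and 39.3% lower among nuclear protein-coding rows. The median log2 ratio of the members was 0.34 in Anaef cells and 0.36 in WT cells, beside -0.47 in Anaef cells and -0.36 in WT cells over nuclear protein-coding rows. Of the 86 genes, 37 were called higher in both genotypes, 18 were called lower in both, and 7 had opposite signs. Without the Anaef RPF pool 3B the count called lower in Anaef cells was 14.

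Of the 56 snRNP and splice-site genes 30 were called higher and 10 lower in Anaef cells, and 31 higher and 10 lower in WT cells, with median log2 ratios of 0.87 in Anaef cells and 0.99 in WT cells. Of the 19 hnRNPs 7 were higher and 8 lower in Anaef cells, and 8 higher and 8 lower in WT cells, with medians of -0.28 in Anaef cells and 0.09 in WT cells. Of the 11 Srsf genes 1 was higher and 4 lower in Anaef cells, and 2 higher and 4 lower in WT cells, with medians of -0.41 in Anaef cells and -0.29 in WT cells. The Srsf medians and the 36.4% called lower in each genotype lie near those of nuclear protein-coding rows. Footprints come from coding sequence and total RNA from whole transcripts, so the ratio takes in how much of a transcript is coding. The coding share of the exons had a median of 20.8% in the Srsf genes, 28.2% in the snRNP genes and 29.99% in the hnRNPs, against 34.8% over the nuclear protein-coding rows tested in WT cells. With the trend of the ratio with coding share removed, the median of nuclear protein-coding rows moved to -0.07 in Anaef cells and -0.05 in WT cells. The Srsf median then turned positive, at 0.52 in Anaef cells and 0.90 in WT cells, and the hnRNP median was 0.64 in Anaef cells and 0.62 in WT cells. The snRNP median stayed the highest, at 1.48 in Anaef cells and 1.51 in WT cells. Members called were then 52 higher and 11 lower in Anaef cells, beside 27.1% higher and 27.4% lower over rows, and 58 higher and 12 lower in WT cells, beside 31.6% higher and 33.2% lower.

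**Figure D2:**
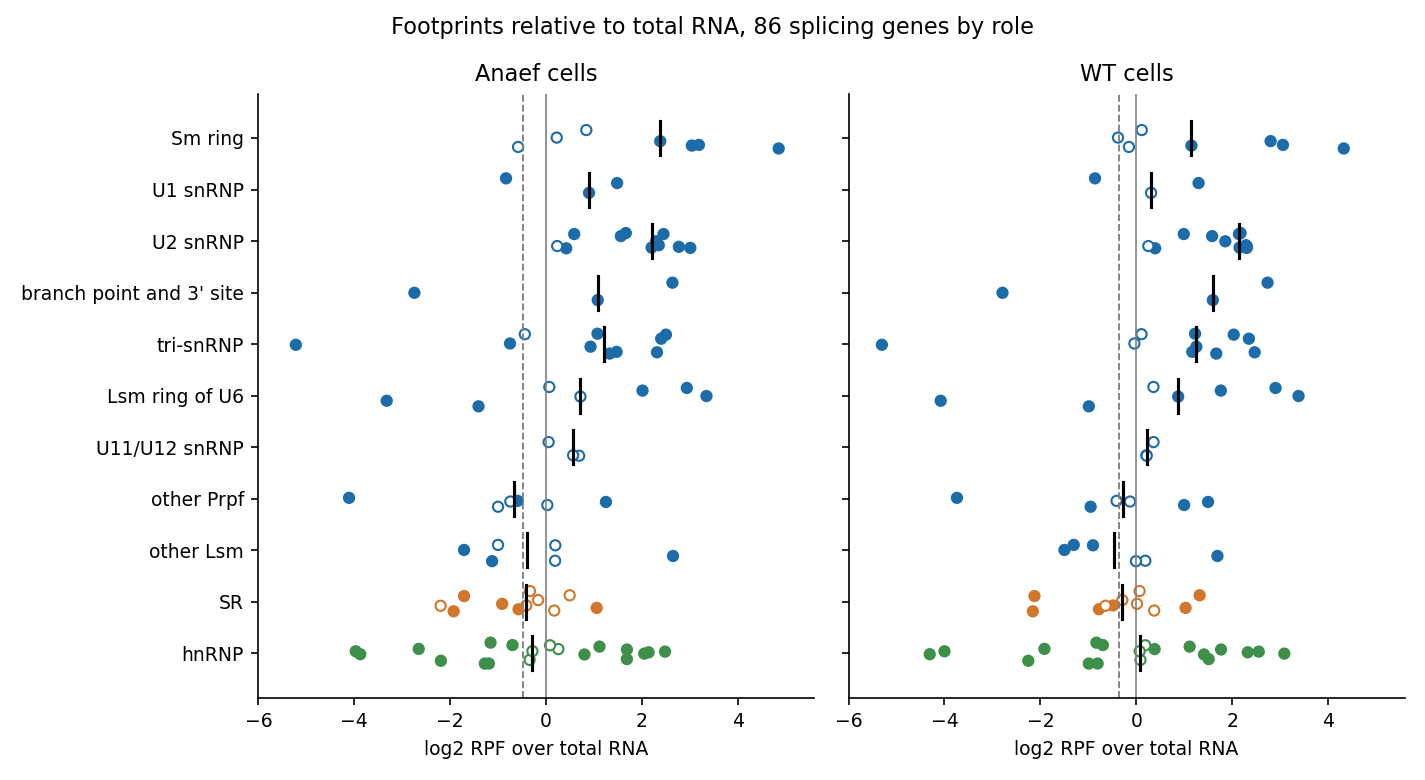
Log2 ratio of RPF to total RNA (horizontal axis) for each of 86 members (points) by role, in Anaef cells (left) and WT cells (right). Filled points passed the adjusted p of 0.05, black bars are medians of the role, the dashed line is the median of nuclear protein-coding rows (-0.47 in Anaef cells and -0.36 in WT cells). The U2 points lie to the right of 0 in both genotypes, while Prpf38b, Prpf39, Lsm2, Sf1 and several hnRNPs form the far left; the Srsf median lies left of 0 here and right of 0 (0.52 in Anaef cells and 0.90 in WT cells) once the trend with coding share is removed.

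The Sm ring held the highest ratio. Snrpd3 had 479 and 462 CPM in the Anaef RPF libraries and 431 and 450.4 CPM in the WT RPF libraries. In total RNA it had 9.35, 3.82, 11.3 and 14.2 CPM in Anaef and 15.6, 8.90, 15.3 and 13.7 CPM in WT. Every RPF library thus stood far above every total RNA library. The log2 ratio was 4.85 (SE 0.43, edgeR adjusted p = 3.61e-05) in Anaef cells and 4.33 (SE 0.24, edgeR adjusted p = 6.35e-06) in WT cells. CPM values are scaled within an assay and the log2 ratios across both, so the ratios run below the plain quotient of the CPM values. Whether CPM values of the 2 assays overlap, here and below, depends on that scaling. Snrpd2, Snrpd1 and Snrpb were called higher as well, with log2 ratios of 3.19 in Anaef cells and 3.06 in WT cells for Snrpd2, 2.38 in Anaef cells and 2.80 in WT cells for Snrpd1 and 3.04 in Anaef cells and 1.15 in WT cells for Snrpb. Without the Anaef pool 4B Snrpd2 (2.91) and without the WT pool 2B Snrpb (1.11) kept their direction and lost the call in that genotype. The total RNA counts of Snrpd2 were low and uneven, at 5.33, 0.585, 2.86 and 13.2 CPM in Anaef and 3.28, 5.57, 3.01 and 9.13 CPM in WT. Snrpe, Snrpf and Snrpg did not pass in either genotype, so the 7 proteins that form 1 ring in equal copies ran from -0.58 to 4.85 in Anaef cells and from -0.38 to 4.33 in WT cells. The sign of Snrpf and Snrpg was not stable over settings, and Snrpf (0.89) and Snrpe (1.16) were called higher in Anaef cells with the coding share trend removed.

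All 11 U2 genes had ratios above 0, and 10 were called higher in both genotypes and none lower, with medians of 2.20 in Anaef cells and 2.14 in WT cells. Per length Sf3b1 and Sf3b4 ran the other way, with lower means in RPF than in total RNA in both genotypes. Sf3b4 had 104 ± 7.60 in Anaef RPF and 93.7 ± 24.7 in WT RPF, against 199 ± 28.9 in Anaef total RNA and 138 ± 22.9 in WT total RNA. The direction of these genes depends on the scale. Sf3a2 had a log2 ratio of 2.77 in Anaef cells and 2.31 in WT cells, and Sf3b5, a small Sf3b subunit, 3.01 in Anaef cells and 2.30 in WT cells. Sf3b1 had 1516 and 1454 CPM in Anaef RPF and 1393 and 1314 in WT RPF, against 615, 655, 676 and 689.8 in Anaef total RNA and 613, 612, 669 and 614 in WT total RNA. Although its groups did not overlap, its log2 ratio was 0.42 (edgeR adjusted p = 0.0355) in Anaef cells and 0.39 (edgeR adjusted p = 0.0268) in WT cells, and it is a call that single libraries decide. It lost it without either RPF pool of each genotype, without Anaef total RNA library 5 or 8 and without WT total RNA library 1, 2 or 4, with log2 ratios of 0.37 to 0.46 in Anaef cells and 0.35 to 0.44 in WT cells. Snrpa1 was the 1 U2 gene that did not pass, at 0.23 in Anaef cells and 0.25 in WT cells.

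The factors that read the end of the intron went in opposite directions. U2af2, which binds the polypyrimidine tract, had 285 and 313 CPM in Anaef RPF and 326 and 374 in WT RPF, against 26.6, 24.5, 30.8 and 32.1 in Anaef total RNA and 30.8, 35.0, 31.0 and 30.6 in WT total RNA. Sf1, which binds the branch point before U2, had 47.9 and 49.2 CPM in Anaef RPF and 45.5 and 45.6 in WT RPF, against 164, 233, 223 and 153 in Anaef total RNA and 223, 186, 161 and 198 in WT total RNA. For both genes the assays lay well apart in both genotypes. The log2 ratio of U2af2 was 2.64 in Anaef cells and 2.74 in WT cells, and that of Sf1 -2.74 in Anaef cells and -2.79 in WT cells. U2af1, the partner of U2af2 that reads the AG at the intron's end, was called higher at 1.08 in Anaef cells and 1.60 in WT cells, the call in Anaef cells being lost without pool 4B (0.89).

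Among U1 genes, Snrpc (U1-C) was called higher at 1.48 in Anaef cells and 1.30 in WT cells, and Snrnp70 (U1-70K) was called lower at -0.83 in Anaef cells and -0.86 in WT cells. With the coding share trend removed Snrnp70 turned to 0.31 in Anaef cells and 0.12 in WT cells and was no longer called, its exons being 18.4% coding. It also lost the call without the Anaef pool 3B (-0.63) in Anaef cells and without the WT pool 2B (-0.77) in WT cells. In the tri-snRNP, the helicase Snrnp200, which unwinds U4 from U6, had log2 ratios of 2.50 in Anaef cells and 2.03 in WT cells, Prpf6 of 2.40 in Anaef cells and 2.35 in WT cells, Snrnp27 of 2.32 in Anaef cells and 2.47 in WT cells and Prpf8, the protein at the catalytic core, of 1.47 in Anaef cells and 1.17 in WT cells. These 4 passed in both genotypes, and 7 of 10 tri-snRNP genes were called higher in WT cells. Per length Prpf8 ran the other way. In RPF it had 195 ± 12.1 in Anaef cells and 179 ± 11.4 in WT cells. In total RNA it had 324 ± 44.1 in Anaef cells and 373 ± 76.5 in WT cells. The direction of Prpf8 thus depends on the scale. Prpf6 and Snrnp27 had higher per-length means in RPF in both genotypes, and Snrnp200 in Anaef cells only. Of the 3 U11/U12 genes, Snrnp25, Snrnp35 and Snrnp48 of the minor spliceosome, none passed in either genotype.

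Prpf38b was the extreme of the other side. It had 30.1 and 20.6 CPM in Anaef RPF and 22.0 and 20.4 in WT RPF, against 576, 627, 554 and 496 in Anaef total RNA and 482, 484, 619 and 459 in WT total RNA. Its log2 ratio was -5.22 (SE 0.27, edgeR adjusted p = 4.29e-06) in Anaef cells and -5.31 (SE 0.24, edgeR adjusted p = 3.44e-06) in WT cells. Its near namesake Prpf38a was called higher in both, at 1.07 in Anaef cells and 1.23 in WT cells, the call in Anaef cells being lost without pool 3B (1.09) or 4B (1.06). Prpf39, whose yeast relative is a U1 protein, had 7.46 and 15.7 CPM in Anaef RPF and 15.5 and 9.47 in WT RPF, against 102, 129.9, 115 and 122 in Anaef total RNA and 83.4, 98.9, 113 and 116 in WT total RNA. That is a log2 ratio of -4.11 in Anaef cells and -3.74 in WT cells, called in both.

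The U6 ring spread to both sides of 0, with 2 of its 7 genes called lower in each genotype, where the Sm ring had none. Lsm7 had 76.8 and 84.1 CPM in Anaef RPF and 83.4 and 83.3 in WT RPF, against 5.23, 4.17, 4.40 and 4.99 in Anaef total RNA and 3.09, 3.42, 9.49 and 3.77 in WT total RNA. Lsm2 had 11.2 and 10.8 CPM in Anaef RPF and 6.50 and 5.10 in WT RPF, against 96.1, 56.5, 38.7 and 70.9 in Anaef total RNA and 46.9, 56.1, 90.7 and 47.1 in WT total RNA. The 2 subunits of 1 ring thus lay at opposite ends, with log2 ratios of 3.35 in Anaef cells and 3.38 in WT cells for Lsm7 and -3.32 in Anaef cells and -4.08 in WT cells for Lsm2. Lsm5 (2.94 in Anaef cells and 2.90 in WT cells) and Lsm4 (2.01 in Anaef cells and 1.76 in WT cells) were also called higher, and Lsm6 (-1.41 in Anaef cells and -0.99 in WT cells) lower. Lsm6, whose exons are 5.89% coding, turned positive with the coding share trend removed, at 0.50 in Anaef cells and 0.87 in WT cells. In that setting the ring ran from -1.96 to 4.27 in Anaef cells and from -2.84 to 4.17 in WT cells. Lsm7 shares 100% of its stretches with other genes, so its values are uncertain. Outside the ring, Lsm10 of the U7 snRNP, which processes histone mRNA, was called higher at 2.65 in Anaef cells and 1.69 in WT cells and Lsm12 lower at -1.71 in Anaef cells and -1.50 in WT cells. Without the Anaef pool 4B the calls in Anaef cells of Lsm5 (2.73), Lsm10 (1.85) and Lsm12 (-1.39) were lost, as was that of Lsm6 without 3B (-1.39) or 4B (-1.43). In WT cells the calls of Lsm4 were lost without pool 1B (1.79) or 2B (1.72), that of Lsm6 without 2B (-0.71), and that of Lsm10 without the WT pool 2B (1.24) or total RNA library 1 (1.53).

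Among SR genes, Srsf2 and Srsf6 had fewer footprints than mRNA and Srsf7 more. Srsf2, known to bind exonic enhancers, had 121 and 120.0 CPM in Anaef RPF and 94.0 and 105 in WT RPF, against 209.7, 387, 249 and 245 in Anaef total RNA and 181, 267, 383 and 245 in WT total RNA. Srsf6 had 48.2 and 70.8 CPM in Anaef RPF and 50.6 and 33.5 in WT RPF, against 115, 98.7, 133 and 114 in Anaef total RNA and 126, 111, 93.4 and 118 in WT total RNA. Neither gene's assays overlapped. The log2 ratios were -1.93 in Anaef cells and -2.16 in WT cells for Srsf2 and -1.71 in Anaef cells and -2.12 in WT cells for Srsf6. Srsf7 had 192 and 209 CPM in Anaef RPF and 205 and 219 in WT RPF, against 64.1, 47.4, 72.7 and 44.9 in Anaef total RNA and 57.5, 61.6, 67.0 and 66.5 in WT total RNA, a log2 ratio of 1.06 in Anaef cells and 1.03 in WT cells. Srsf1 did not pass, at -0.16 in Anaef cells and -0.29 in WT cells. Srsf3, whose exons are 6.62% coding, was called lower at -0.57 in Anaef cells and -0.78 in WT cells, but with the coding share trend removed it was called higher, at 1.23 in Anaef cells and 0.97 in WT cells. Srsf1 and Srsf5 turned likewise, to 1.17 and 0.64 in Anaef cells and to 0.90 and 0.40 in WT cells, so the direction of these 3 genes depends on that setting. The call of Srsf3 was also lost without the Anaef pool 3B (-0.48) or 4B (-0.67) in Anaef cells and without the WT pool 1B (-0.65) in WT cells.

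The hnRNPs spread over the whole range. Hnrnpc, which coats uridine-rich introns, had 621 and 781 CPM in Anaef RPF and 699 and 497 in WT RPF, against 69.2, 74.2, 82.3 and 71.9 in Anaef total RNA and 52.1, 64.5, 72.7 and 58.6 in WT total RNA. Hnrnph3 had 8.03 and 12.6 CPM in Anaef RPF and 6.94 and 6.80 in WT RPF, against 73.1, 89.0, 91.0 and 103 in Anaef total RNA and 68.5, 95.0, 86.9 and 81.6 in WT total RNA. Hnrnpdl had 27.2 and 17.1 CPM in Anaef RPF and 22.7 and 18.9 in WT RPF, against 169.9, 223, 246 and 192 in Anaef total RNA and 199, 217, 176 and 223 in WT total RNA. Hnrnpc was thus abundant in footprints and modest in mRNA, and Hnrnph3 and Hnrnpdl the reverse, with no overlap of assays for any of the 3. The log2 ratios were 2.48 in Anaef cells and 2.56 in WT cells for Hnrnpc, -3.87 in Anaef cells and -4.31 in WT cells for Hnrnph3 and -3.97 in Anaef cells and -4.00 in WT cells for Hnrnpdl. Hnrnpa0, Hnrnpf, Hnrnph2, Hnrnpk, Hnrnpm and Hnrnpul2 were called higher in both genotypes as well, the call of Hnrnpf in Anaef cells being lost without pool 3B (0.83) or 4B (0.77). Hnrnpa1, Hnrnpa3, Hnrnpd, Hnrnph1, Hnrnpll and Hnrnpr were called lower in both, with -1.28 in Anaef cells and -0.99 in WT cells for Hnrnpa1, -2.19 in Anaef cells and -2.25 in WT cells for Hnrnpd and -2.65 in Anaef cells and -1.92 in WT cells for Hnrnpll. For Hnrnpa3 (-1.19 in Anaef cells and -0.81 in WT cells) the call was lost with the coding share trend removed, when it had -0.16 in Anaef cells and 0.055 in WT cells. Hnrnpl did not pass, at -0.34 in Anaef cells and 0.087 in WT cells.

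The members with low ratios were often those whose gene is annotated with an NMD transcript, a form that a premature stop is expected to send to decay. Such a transcript is annotated for 38 of 86 members (44.2%), among them 81.8% of Srsf genes, 47.4% of hnRNPs and 35.7% of snRNP genes, against 28.4% of the nuclear protein-coding rows tested in WT cells. The 38 members with one had a median log2 ratio of -0.34 in Anaef cells and -0.15 in WT cells, and the 48 without had 1.09 in Anaef cells and 1.20 in WT cells. Over nuclear protein-coding rows the medians were -1.17 with and -0.24 without in Anaef cells, and -1.11 with and -0.10 without in WT cells. Calls were 11 higher and 15 lower with an NMD transcript and 27 higher and 7 lower without in Anaef cells, and 11 higher and 17 lower with and 30 higher and 5 lower without in WT cells. Over nuclear protein-coding rows 15.2% were higher and 48.7% lower with such a transcript and 24.1% higher and 31.3% lower without in Anaef cells, and 17.9% higher and 53.1% lower with and 29.8% higher and 33.8% lower without in WT cells. The split was seen in 2 families. The 9 hnRNPs with such a transcript had medians of -1.28 in Anaef cells and -0.99 in WT cells, and the 10 without 0.96 in Anaef cells and 1.26 in WT cells. The 20 snRNP genes with one had 0.33 in Anaef cells and 0.18 in WT cells, and the 36 without 1.48 in Anaef cells and 1.26 in WT cells. Only 2 Srsf genes have none, which is too few to compare. Across the 86 genes the number of NMD transcripts had a Spearman rho with the ratio of -0.37 in Anaef cells and -0.41 in WT cells, beside -0.17 in Anaef cells and -0.19 in WT cells over nuclear protein-coding rows. These are descriptions across genes of the same libraries. The files count genes, not transcripts, so how much of any gene's RNA was of that form was not tested.

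**Figure D3:**
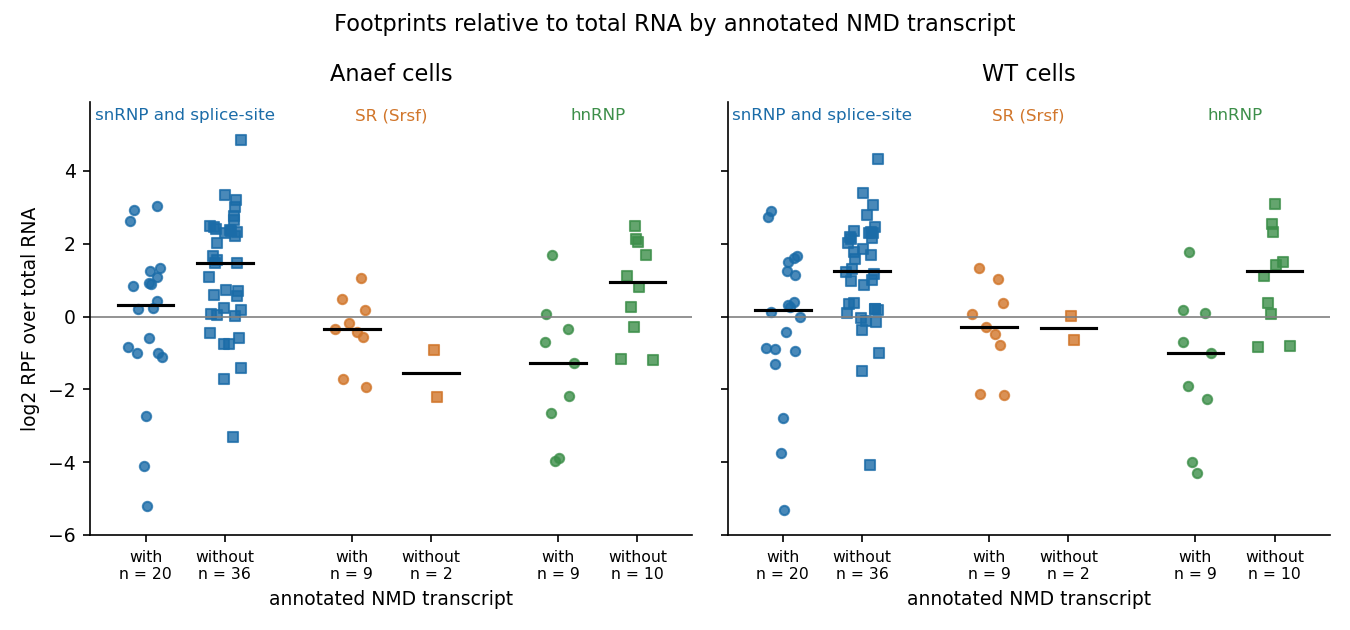
Log2 ratio of RPF to total RNA (vertical axis) for members with and without an annotated NMD transcript, by family, in Anaef cells (left) and WT cells (right); points are genes and bars medians. Among hnRNPs the genes with such a transcript have medians of -1.28 in Anaef cells and -0.99 in WT cells and those without 0.96 in Anaef cells and 1.26 in WT cells, with overlapping points.

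Between genotypes no member passed the test in either assay. In RPF, edgeR's quasi-likelihood test gave 0 of 85 members tested at an adjusted p under 0.05, beside 0% of 9710 rows (Srsf12 was too low to test). At an unadjusted p under 0.05, 7 members lay above 0 and 8 below, which is 8.24% and 9.41% of members, beside 4.92% of rows above and 6.93% below. All 7 with values above 0 were snRNP genes, while the 8 below 0 were 3 snRNP genes, 2 Srsf genes and 3 hnRNPs. DESeq2 called 2 members higher (Lsm5 and Snrpb) and 3 lower (Hnrnpa0, Hnrnpf and Lsm14a), beside 0.853% of rows higher and 1.55% lower. Without the filter on low counts edgeR called Snrpb, Lsm5, Snrpe and Snrpf higher and Hnrnpf and Hnrnpa0 lower, beside 0.863% of rows higher and 2.63% lower. On nuclear protein-coding rows only it called Snrpb alone, beside 0.0222% of rows higher and 0.0444% lower. limma-voom called none.

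Snrpb had the smallest unadjusted p of the members in RPF. It had 72.8 and 85.1 CPM in Anaef RPF and 28.8 and 30.1 CPM in WT RPF, and 2.80, 7.99, 6.64 and 5.25 CPM in Anaef total RNA and 5.30, 10.2, 7.67 and 9.09 CPM in WT total RNA. Both Anaef RPF pools were above both WT pools, while in total RNA the groups overlapped. The log2 difference in RPF was 1.42 (SE 0.18, edgeR adjusted p = 0.296) and in total RNA -0.51 (SE 0.37, edgeR adjusted p = 0.942). Other ring genes had RPF values above 0 without passing the edgeR test with its count filter. Lsm5 had 21.5 and 28.6 CPM in Anaef RPF and 12.5 and 6.80 in WT RPF, a log2 difference of 1.33 (SE 0.34). Snrpf had 28.4 and 54.8 CPM in Anaef RPF and 19.0 and 21.1 in WT RPF, a log2 difference of 1.04 (SE 0.32). Snrpe had 25.8 and 46.4 CPM in Anaef RPF and 19.9 and 20.9 in WT RPF, a log2 difference of 0.82 (SE 0.29). For Snrpf and Snrpe the Anaef pool numbered 4B was much above its partner 3B, and the 2 values rest on it. Without 4B they were 0.50 for Snrpf and 0.33 for Snrpe and edgeR called no member. Without 3B they were 1.45 for Snrpf and 1.19 for Snrpe and edgeR called both and Snrpb higher, beside 0.158% of rows higher and 1.93% lower. Lsm2 (0.90), Snrpa of the U1 snRNP (0.57) and Snrnp200 (0.32) completed the 7. All 7 Sm ring genes, all 3 U1 genes and 10 of 11 U2 genes had RPF values above 0, while 7 of 10 tri-snRNP genes, 4 of 6 other Prpf genes and 12 of 19 hnRNPs had values below 0. Over all rows 4937 of 9710 lay above 0. The RPF medians were 0.14 for snRNP genes, 0.13 for Srsf genes and -0.054 for hnRNPs, beside 0.0083 over nuclear protein-coding rows.

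**Figure D4:**
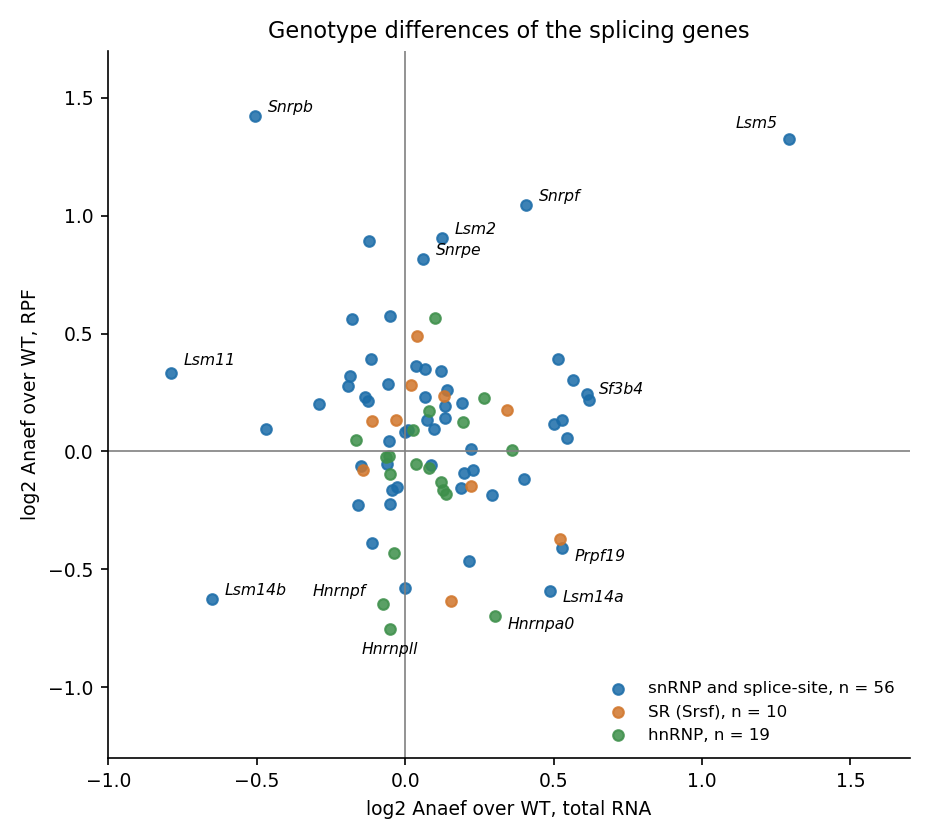
Log2 Anaef over WT in RPF (vertical axis) against total RNA (horizontal axis) for the 85 members tested in both, coloured by family. Snrpb (1.42) and Lsm5 (1.33) lie at the top and Hnrnpll (-0.75), Hnrnpa0 (-0.70) and Hnrnpf (-0.65) at the bottom in RPF; no gene passed edgeR's adjusted p of 0.05 in either assay, while DESeq2 called 5 in RPF and 1 in total RNA.

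Hnrnpf had 1020.2 and 1074 CPM in Anaef RPF and 1724 and 1556 CPM in WT RPF, and 305, 286, 441 and 396 CPM in Anaef total RNA and 424, 388, 293 and 396 CPM in WT total RNA. The Anaef pools lay below the WT pools in RPF and the groups overlapped in total RNA. The log2 difference was -0.65 (SE 0.13, edgeR adjusted p = 0.344) in RPF and -0.073 in total RNA. Hnrnpa0 had 81.7 and 106 CPM in Anaef RPF and 140.1 and 165 in WT RPF, a log2 difference of -0.70 (SE 0.19). Hnrnpl had 176 and 183 CPM in Anaef RPF and 247 and 237 in WT RPF, a log2 difference of -0.43 (SE 0.13). These 3 hnRNPs had Anaef pools under both WT pools. None passed the edgeR test with its count filter, while DESeq2, and edgeR with no filter, called Hnrnpf and Hnrnpa0 lower. Hnrnpll had 13.5 and 5.93 CPM in Anaef RPF and 20.2 and 12.6 in WT RPF, where the groups overlapped (log2 difference -0.75, edgeR adjusted p = 0.526). Lsm14a, a protein of mRNA storage granules rather than of the spliceosome, had 84.9 and 104 CPM in Anaef RPF and 142 and 143 in WT RPF (log2 difference -0.59, SE 0.16). Prpf18, which acts at the second catalytic step, had 40.1 and 36.6 CPM in Anaef RPF and 60.4 and 54.4 in WT RPF (log2 difference -0.58, SE 0.17). The other 3 at an unadjusted p under 0.05 were Snrnp40 (-0.46), Srsf9 (-0.63) and Srsf10 (-0.37).

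In total RNA 0 of 86 members passed, beside 0.0224% of 17876 rows (4 rows) called in either direction. At an unadjusted p under 0.05, 4 members lay above 0 and 1 below, beside 2.73% of rows above and 2.89% below. DESeq2 called Sf3b4 alone, beside 0.163% of rows higher and 0.512% lower, and limma-voom called no member. Sf3b4, which contacts the RNA next to the branch point, had 59.9, 46.9, 48.6 and 45.4 CPM in Anaef and 38.8, 31.2, 29.7 and 31.5 CPM in WT. The groups did not overlap, with a log2 difference of 0.61 (SE 0.16, edgeR adjusted p = 0.594). Prpf19, the ubiquitin ligase of the complex that activates the spliceosome, had 82.0, 95.7, 68.7 and 109 CPM in Anaef and 48.2, 66.6, 75.1 and 56.7 CPM in WT (log2 difference 0.53, SE 0.19). Lsm14a had 96.4, 178, 104 and 111 CPM in Anaef and 90.6, 89.5, 75.4 and 92.4 CPM in WT (log2 difference 0.49, SE 0.20), and Hnrnpa3 785, 1039, 706 and 906 CPM in Anaef and 597, 693, 739.9 and 649 CPM in WT (log2 difference 0.36, SE 0.15). The groups of Lsm14a did not overlap and those of Prpf19 and Hnrnpa3 did. Lsm8 (0.57), and below 0 Lsm11 (-0.79), Lsm14b (-0.65), Snrpb, Snrpd3 (-0.47) and Sf3a1 (-0.19), had the next smallest p values and overlapping groups. Leaving out 1 library moved several of these by over 1.5 times. Without Anaef library 5 Lsm14b had -0.43, Snrpb -0.28 and Sf3a1 -0.30, and without Anaef library 6 Snrpd3 had -0.20 and Lsm14a 0.25. Without Anaef library 7 Lsm14b had -1.09, without Anaef library 8 Snrpd3 had -0.71 and without WT library 3 Sf3a1 had -0.071. The family medians were 0.07 for snRNP genes, 0.13 for Srsf genes and 0.08 for hnRNPs, beside 0.02 over nuclear protein-coding rows.

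**Figure D5:**
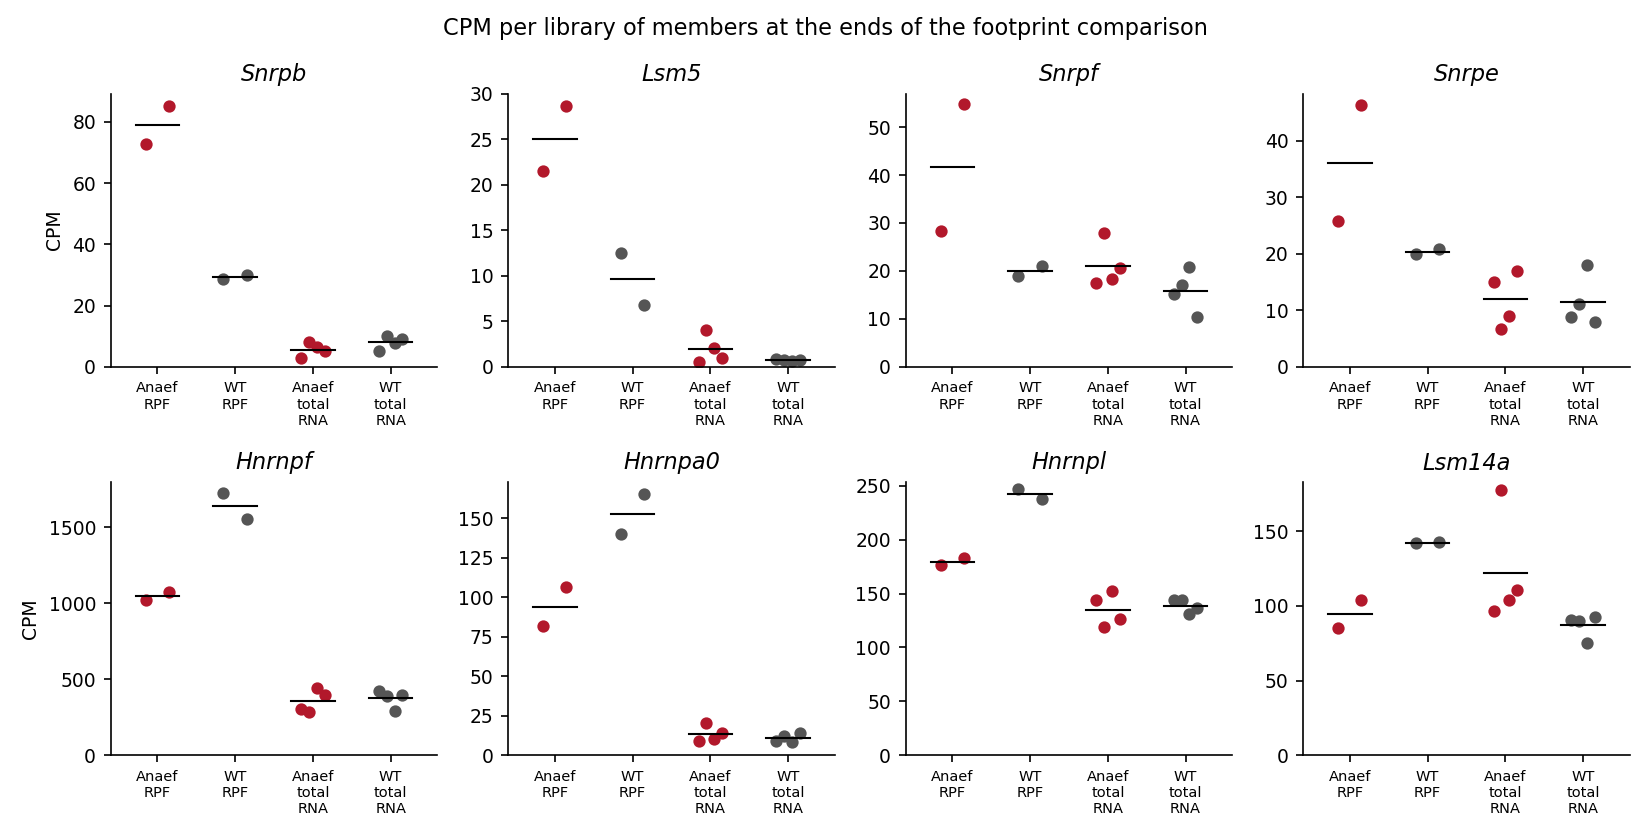
CPM (vertical axis, linear) of 8 members in every library, RPF and total RNA side by side, with Anaef in red to the left of WT in grey and bars at the group mean. In RPF Snrpb, Lsm5, Snrpf and Snrpe have both Anaef pools above both WT pools, and Hnrnpf, Hnrnpa0, Hnrnpl and Lsm14a have both below. The 8 were picked from the ends of this same RPF comparison, so their separation is not independent of the choice. Hnrnpll, the lowest member in RPF (-0.75), whose groups overlapped, is not shown.

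The genotype difference in RPF relative to that in total RNA was tested as an interaction over all 12 libraries. It gave 0 of 86 members at an edgeR adjusted p under 0.05, beside 0% of 19031 rows, and 0 by DESeq2 and limma-voom. At an unadjusted p under 0.05, 1 member lay above 0 and 4 below, beside 1.59% of rows above and 1.76% below. The 1 above was Snrpb, with an interaction of 1.91 on the log2 scale (SE 0.53). The 4 below were Lsm14a at -1.10 (SE 0.33), Prpf19 at -0.95 (SE 0.34), Snrnp40 at -0.69 (SE 0.28) and Hnrnpa0 at -1.02 (SE 0.46). For Lsm14a and Prpf19 the total RNA value lay above 0 and the RPF value below it. Srsf10 (-0.91) and, above 0, Snrpa (0.61), Lsm11 (1.12), Sf3a1 (0.46) and Snrnp200 (0.49) had the next smallest p values. The medians were 0.04 for snRNP genes, 0.05 for Srsf genes and -0.10 for hnRNPs, beside -0.01 over nuclear protein-coding rows. Leaving out 1 library turned the sign of the snRNP median (-0.094 to 0.099) and of the Srsf median (-0.067 to 0.098), and without the Anaef pool 4B Lsm11 had 0.56.

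Other genes of the splicing pathway were described from 7 lists of 120 genes, of which 113 are in the table. None passed between genotypes in RPF (0 of 109 tested), in total RNA (0 of 113) or in the interaction. The catalytic and Prp19-complex list mostly had more footprints than RNA, with 17 of 20 called higher and 1 lower in Anaef cells and 16 higher and 1 lower in WT cells. The background for these lists is that given above, 21.6% of nuclear protein-coding rows higher and 36.2% lower in Anaef cells and 26.5% higher and 39.3% lower in WT cells. Crnkl1, a scaffold of that complex, had 2.33 in Anaef cells and 2.73 in WT cells, and Snw1 had 2.56 in Anaef cells and 2.49 in WT cells. Of 10 spliceosomal helicases 6 were higher and 2 lower in Anaef cells and 7 higher and 2 lower in WT cells, with Dhx8, which releases the spliced mRNA, at 2.82 in Anaef cells and 2.80 in WT cells. Of 9 exon junction genes 5 were higher and 1 lower in both genotypes. Magoh, a core subunit, averaged 207 ± 3.15 CPM in Anaef RPF and 166 ± 19.8 in WT RPF (SD, n = 2 each), against 8.69 ± 3.61 in Anaef total RNA and 6.61 ± 2.90 in WT total RNA (SD, n = 4 each), a log2 ratio of 3.83 in Anaef cells and 3.95 in WT cells. Eif4a3, its helicase partner, had 3.20 in Anaef cells and 3.03 in WT cells and Pnn -2.61 in Anaef cells and -2.06 in WT cells.

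Among SR-related proteins and SR kinases 4 of 18 (22.2%) were called higher and 8 (44.4%) lower in Anaef cells and 6 (33.3%) higher and 9 (50.0%) lower in WT cells, shares not far from those of nuclear protein-coding rows. Tra2b, a splicing activator, averaged 10.7 ± 2.15 CPM in Anaef RPF and 9.11 ± 1.19 in WT RPF (SD, n = 2 each), against 82.9 ± 12.4 in Anaef total RNA and 79.8 ± 13.6 in WT total RNA (SD, n = 4 each), a log2 ratio of -3.71 in Anaef cells and -3.85 in WT cells. Tnpo3, which imports SR proteins into the nucleus, had -6.38 in Anaef cells and -6.25 in WT cells. It averaged only 1.21 ± 0.723 CPM in Anaef RPF and 1.41 ± 0.747 in WT RPF, against 62.2 ± 7.51 in Anaef total RNA and 61.9 ± 3.09 in WT total RNA. With so few footprints its ratio is imprecise, and the part of the mask in it was not tested. Among 32 other regulators 7 were higher and 18 lower in Anaef cells and 11 higher and 18 lower in WT cells. Rbm5 averaged 35.1 ± 6.63 CPM in Anaef RPF and 26.6 ± 10.8 in WT RPF, against 526 ± 28.7 in Anaef total RNA and 500.4 ± 68.4 in WT total RNA (SD, with the same n). Luc7l2, related to a yeast U1 protein, averaged 6.66 ± 1.53 CPM in Anaef RPF and 6.81 ± 3.11 in WT RPF, against 289.6 ± 59.4 in Anaef total RNA and 239 ± 41.9 in WT total RNA. Both thus had abundant mRNA and few footprints in both genotypes. Of 14 snRNP assembly genes 2 were higher and 2 lower in Anaef cells and 3 higher and 1 lower in WT cells. Of 10 NMD genes 3 were higher in both genotypes, 2 lower in Anaef cells and 3 lower in WT cells, with Upf1, the central helicase of NMD, at 3.63 in Anaef cells and 3.40 in WT cells and Smg1, the kinase that phosphorylates it, at -2.62 in Anaef cells and -2.73 in WT cells.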

How the data were processed

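The deposited table holds whole-number read counts per gene, as the authors made them, for 8 total RNA and 4 RPF libraries of mouse CD4+ T cells, and every column of values was used (0 unused columns). TopHat 1.4.1 and the genome build GRCm38 are named per the submitters' processing notes. The sources used here do not give the counting tool, its annotation, its use of strand or the mask named in the RPF column labels. Counts were tested as deposited with edgeR 4.0.16 (R 4.3.3): TMM scaling, filterByExpr, quasi-likelihood fits, Benjamini-Hochberg adjustment over all rows tested at 0.05, and a prior count of 2 for log values. Each assay was fitted alone for genotype, each genotype alone for RPF over total RNA, and all 12 libraries for the interaction. CPM were scaled by TMM within an assay. Exon and coding lengths, transcript types and shared 30-base stretches came from GENCODE vM21. Alternatives were DESeq2 1.42.0, limma-voom (limma 3.58.1), RLE scaling, no filter, a mean of at least 50 counts, nuclear protein-coding rows only, all 12 libraries in 1 fit, removal of the lowess trend (span 0.3) of the ratio with coding share, and leaving out each library. Named members were those called (the 10 with the largest change in a direction with more than 10; with none called, the 5 of smallest p on each side), the 2 of each family with the highest per-length level in total RNA, and Hnrnpll, Hnrnpl, Hnrnpa1, Srsf1, Srsf2, Srsf3, Srsf7, Sf3b1, U2af1, Prpf8, Snrnp70 and Snrpn; pathway lists gave up to 3 with the smallest p. Other members are named after their values were seen, to account for counts. The members and lists were chosen with earlier results of these data known. The fits were tested on simulated data. Counting error falls with depth, so RPF values of members with few counts are the least precise.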

Additional observations from a re-analysis of the deposited data

Results flagged for a closer look

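Among 120 groups of 4 total RNA libraries of members examined for 1 library far from the other 3, 10 were marked, and chance marks about 1 in 20 such groups. In Anaef total RNA, Srsf3 stood low in the library numbered 5, at 204 CPM, and Lsm6 stood high in the library numbered 6, at 43.0 CPM. In WT total RNA, the library numbered 3 stood apart for 6 genes. It was high for Prpf38b (619 CPM), Sf3b1 (669 CPM), Sf3a1 (54.4 CPM) and Lsm7 (9.49 CPM), and low for Hnrnpd (131 CPM) and Lsm14a (75.4 CPM). That library was also the shallowest of its assay and had the highest share of mitochondrial (27.8%) and pseudogene (28.2%) counts, and the part of these in the 6 values was not tested. Srsf5 stood apart in the WT library numbered 4, at 408 CPM, and U2af2 in the WT library numbered 2, at 35.0 CPM. The RPF groups of 2 were too small to examine in this way.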

How the results depend on the processing

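No member was called in the interaction under any setting run, and none between genotypes in total RNA save 1 higher by DESeq2 (Sf3b4). In RPF, Anaef over WT, DESeq2 called 2 higher and 3 lower, the fit with no filter 4 higher and 2 lower, the fit on nuclear protein-coding rows 1 higher (Snrpb), and leaving out a library gave 0 to 3 higher and 0 lower. Leaving out a library moved the RPF genotype medians (0.14 for snRNP genes, 0.13 for Srsf genes, -0.054 for hnRNPs) to between 0.067 and 0.21 for snRNP genes, 0.0065 and 0.17 for Srsf genes and -0.15 and -0.016 for hnRNPs. In total RNA they ran from 0.024 to 0.14 for snRNP genes, 0.058 to 0.18 for Srsf genes and 0.011 to 0.11 for hnRNPs, and in the interaction from -0.094 to 0.099 for snRNP genes, -0.067 to 0.098 for Srsf genes and -0.25 to -0.086 for hnRNPs. For RPF over total RNA, removing the coding share trend lowered the count called lower to 11 in Anaef cells and 12 in WT cells and raised the medians, to 1.48 in Anaef cells and 1.51 in WT cells for snRNP genes, 0.52 in Anaef cells and 0.90 in WT cells for Srsf genes, and 0.64 in Anaef cells and 0.62 in WT cells for hnRNPs. Leaving out an Anaef library gave 14 to 25 members called lower in Anaef cells. Under the trend removal the sign reversed in Anaef cells for Srsf1 (1.17), Srsf3 (1.23), Srsf5 (0.64), Snrnp70 (0.31), Hnrnpl (0.21), Lsm6 (0.50) and Snrpg (0.75), and in WT cells for Srsf1 (0.90), Srsf3 (0.97), Srsf5 (0.40), Snrnp70 (0.12), Hnrnpa3 (0.055), Lsm6 (0.87), Snrpf (0.15) and Snrpg (1.03). These shifts follow from the construction of that setting, which centres the ratios of genes of like coding share. Snrpg in WT cells also reversed with limma-voom (0.19) and without the WT total RNA library 3 (0.38; -0.39 to 0.38 over the libraries left out), and Snrpf in Anaef cells without the Anaef RPF pool 4B (-0.31; -0.31 to 0.62 over the libraries left out). The cause was not tested. Summed CPM with no division by length gave WT RPF over WT total RNA of 2.72 for snRNP, 1.16 for Srsf and 2.24 for hnRNP genes. Of the other values of single members, 749 of those that leave out a library and 895 of the rest kept direction and call. No paired analysis was run. The genotype groups share no replicate numbers. Within a genotype the labels do not say which mice an RPF pool holds, so pools could not be paired with total RNA libraries. Pools of unknown mice, 2 RPF libraries a group and kits that differ between assays limit what these counts can show. So do a mask named for the RPF columns only and members that share sequence with other genes.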
